A study of Mus musculus with 8 samples.

Results

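Peaks of open chromatin were examined at 9 genes of cytotoxic T and natural killer (NK) lymphocytes, Prf1, Gzma, Gzmb, Nkg7, Fasl, Ccl5, Klrd1, Klrk1 and Ncr1, in sorted mouse retinal ganglion cells (RGCs). The genes were taken as a fixed list of names, out of 21900 protein-coding genes with a position in the annotation, and every peak that overlapped a gene or the 10 kb on either side of it was kept. The genes were chosen by the peaks of these same samples, namely by which lists had a peak in their windows and how high its fold ranked there. Differences between groups at these genes are therefore described here. Where a model fitted over all regions also covers a member region, its result there rests on the values that chose the genes and is no independent test.

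ATAC-seq, in which a transposase cuts and tags accessible DNA, was run on C57BL/6J mice with 50000 sorted cells per library. All mice received an AAV2 virus in the vitreous, had the optic nerve crushed (ONC) 2 weeks later, and had cells sorted 3 days after the ONC. The virus carried GFP in the control group (3 samples), Ezh2 in the second group (3 samples) and Ezh2-Y726D in the third (2 samples). Ezh2 is the histone methyltransferase of the Polycomb repressive complex PRC2, and Ezh2-Y726D is a form of it without catalytic activity. Age, the promoter of the virus, and whether samples were separate mice or pools are not given in the labels, so the spread between samples may be partly technical. The sort kept live cells that carried Thy1 on their surface. Thy1 marks RGCs in the retina and is also carried by mouse T cells, and intravitreal AAV2 is not restricted to RGCs.

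Cytotoxic lymphocytes kill in 2 main ways. They release granules in which perforin opens the membrane of the target cell and granzymes enter to trigger its death, and they display Fas ligand, which engages the death receptor Fas. NK cells decide on a target through surface receptors that activate or inhibit them, several of which are encoded side by side in the NK gene complex. Several of the genes are used outside lymphocytes too, since Fas ligand is found in ocular tissue and Ccl5 is made by macrophages and glia.

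Overlapping peaks (1 bp or more, across the 8 lists together) were joined into 189914 regions, of which 37 fell in the windows of the 9 genes. Each region is named by its gene and a number that follows the coordinate. The lists held from 112939 to 135895 peaks, and their mean length was 120774 ± 11257 in GFP (SD, n = 3), 129904 ± 5227 in Ezh2 (SD, n = 3) and 126697 ± 2872 in Ezh2-Y726D (SD, n = 2). Two-sided exact permutation tests of length did not pass 0.05 (p = 0.3 for Ezh2 against GFP, 0.5 for Ezh2-Y726D against GFP and 0.6 for Ezh2 against Ezh2-Y726D, where the smallest possible p is 0.1). The lists hold no read numbers, so depth is unknown, and a region without a peak is one that did not pass the caller's threshold in that library. In bulk chromatin, fewer cells of a type and less accessible DNA per cell cannot be told apart.

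The promoters of Prf1, Gzmb, Nkg7 and Fasl are shown first, because these 4 genes had a peak at the promoter in all 6 GFP and Ezh2 lists and in neither Ezh2-Y726D list. Each sequence covers 250 bases before and 50 after the start of the transcript, 5′ to 3′ on the strand of the gene, from RefSeq for GRCm38.p6. Capitals mark matches on either strand to the motifs described after the sequences.
Prf1, chr10:61297586-61297885, strand plus: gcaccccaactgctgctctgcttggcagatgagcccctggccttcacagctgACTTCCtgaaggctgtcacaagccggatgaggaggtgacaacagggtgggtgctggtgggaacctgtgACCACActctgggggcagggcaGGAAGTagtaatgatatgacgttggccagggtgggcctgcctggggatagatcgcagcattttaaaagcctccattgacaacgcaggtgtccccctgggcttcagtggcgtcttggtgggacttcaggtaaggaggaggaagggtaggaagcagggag
Gzmb, chr14:56262285-56262584, strand minus: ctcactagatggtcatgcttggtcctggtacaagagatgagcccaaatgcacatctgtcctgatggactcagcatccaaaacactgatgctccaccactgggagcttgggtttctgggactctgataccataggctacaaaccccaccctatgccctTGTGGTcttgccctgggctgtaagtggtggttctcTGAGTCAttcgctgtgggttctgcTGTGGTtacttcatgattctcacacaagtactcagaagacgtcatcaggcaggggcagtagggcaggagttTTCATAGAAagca
Nkg7, chr7:43436888-43437187, strand plus: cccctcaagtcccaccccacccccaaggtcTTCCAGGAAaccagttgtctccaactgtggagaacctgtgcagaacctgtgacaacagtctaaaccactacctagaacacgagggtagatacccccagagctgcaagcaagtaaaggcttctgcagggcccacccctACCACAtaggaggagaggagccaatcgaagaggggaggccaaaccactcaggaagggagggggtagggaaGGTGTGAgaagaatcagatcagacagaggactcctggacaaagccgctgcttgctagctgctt
Fasl, chr1:161788446-161788745, strand minus: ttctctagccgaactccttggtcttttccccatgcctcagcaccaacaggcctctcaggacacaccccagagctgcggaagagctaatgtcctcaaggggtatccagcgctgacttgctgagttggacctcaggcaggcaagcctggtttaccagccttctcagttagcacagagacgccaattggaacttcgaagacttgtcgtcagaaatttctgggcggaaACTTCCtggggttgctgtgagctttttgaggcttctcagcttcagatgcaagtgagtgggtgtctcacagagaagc

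Promoter sequences were found for 7 of the 9 genes, all but Klrd1 and Ccl5. The RUNX motif TGTGGT was found in 6 of the 7 (Prf1, Gzma, Gzmb, Nkg7, Klrk1 and Ncr1), against 16.8% of 32851 promoters in the table. Prf1 and Fasl held the ETS motif GGAAGT (23.8% of all promoters), which occurs once in Fasl and on both strands in Prf1. Gzmb and Klrk1 matched the AP-1 motif TGANTCA (7.81%), Gzmb and Nkg7 the STAT motif TTCNNNGAA (8.30%), and Nkg7 the T-box motif GGTGTGA (3.98%). The E-box CACGTG (7.15%) was found in 0 of the 7. None of the capital runs printed here overlaps another. RUNX, ETS, T-box, AP-1 and STAT proteins are families of transcription factors with members active in lymphocytes, but a match is only a run of letters and not a site of binding. GC content of the 7 promoters lay between 43.3% and 58.7%, with a median of 52.7% over all promoters.

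Across the 9 windows, peaks were most numerous in the Ezh2 lists and least numerous in the Ezh2-Y726D lists. GFP replicates 1, 2 and 3 held 20, 19 and 20 peaks, the Ezh2 replicates 28, 29 and 30, and the Ezh2-Y726D replicates 6 and 7. The means were 19.7 ± 0.577 in GFP (SD, n = 3), 29 ± 1 in Ezh2 (SD, n = 3) and 6.5 ± 0.707 in Ezh2-Y726D (SD, n = 2), and the 3 groups did not overlap. The lengths of the whole lists followed another order, since the Ezh2-Y726D lists were on average longer than the GFP lists. Counted as regions, 19, 16 and 20 of the 37 had a peak in the GFP lists, 28, 29 and 30 in the Ezh2 lists, and 6 and 7 in the Ezh2-Y726D lists.

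**Figure D1:**
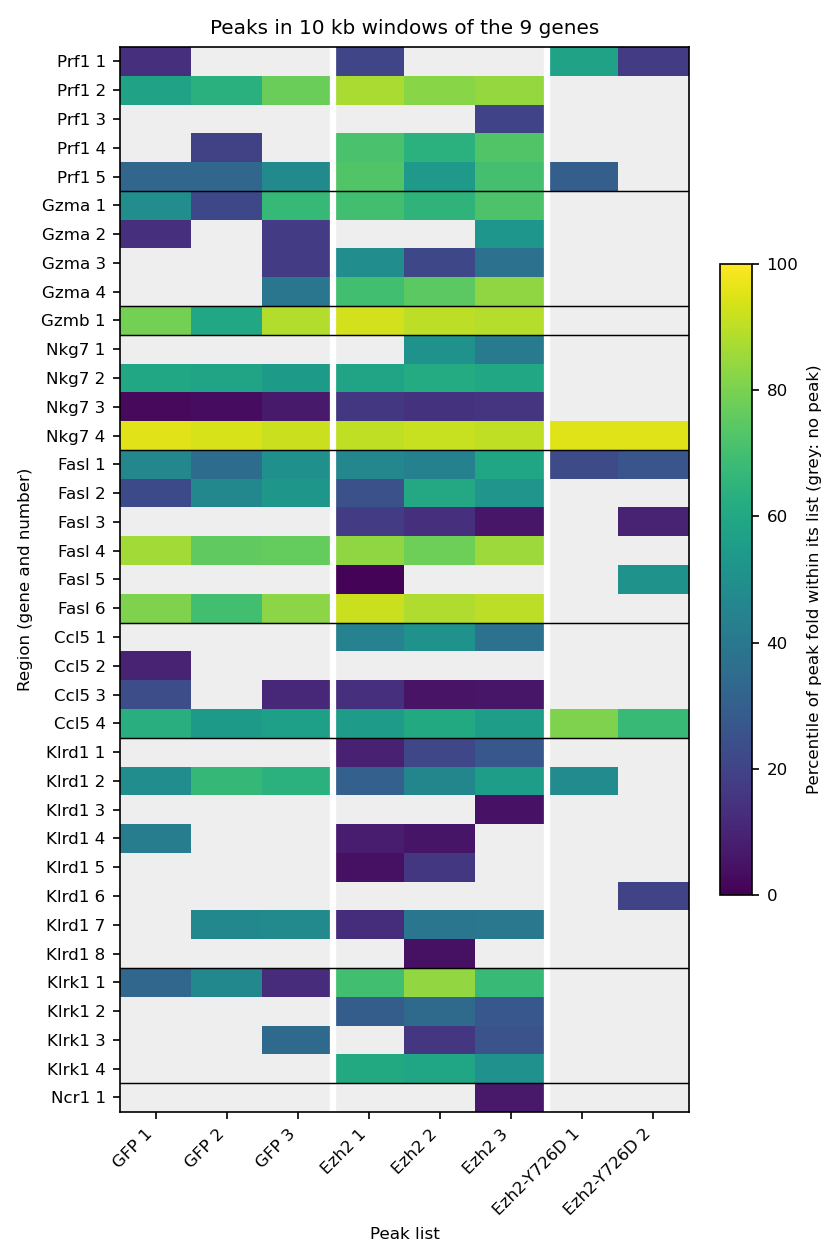
Each row is 1 of the 37 regions in the windows of the 9 genes and each column 1 peak list, with white gaps between GFP, Ezh2 and Ezh2-Y726D. Colour gives the percentile of the peak's fold within its own list and grey marks no peak. The 2 Ezh2-Y726D columns are grey in 28 of the 37 rows.

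In 28 of the 37 regions (75.7%) neither Ezh2-Y726D list had a peak, compared with 27.2% of all regions in the series. A peak in all 8 lists was found in 3 of the 37 (8.11%), against 36.6% of all regions. Another 9 regions (24.3%) were covered in all GFP and all Ezh2 lists but in neither Ezh2-Y726D list, and the same pattern held for 3.61% of all regions. These 9 belong to 7 of the genes. Without a requirement on the Ezh2 lists, 9 of the 37 were covered in every GFP list but neither Ezh2-Y726D list (4.72% of all regions were), and 18 in every Ezh2 list but neither Ezh2-Y726D list (8.96%). The reverse patterns, a peak in both Ezh2-Y726D lists and in no GFP list (4.77% of all regions) or in no Ezh2 list (6.14%), were each met by 0 of the 37. Between the other groups, 5 were covered by every Ezh2 list but no GFP list (2.72%) and 0 the reverse (1.68%). The list of genes was chosen with these patterns known, so the counts describe the members and nothing is read from their distance to the background.

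By gene, the window held more peaks in every GFP list than in either Ezh2-Y726D list for 6 of the 9 genes, namely Gzma, Gzmb, Nkg7, Klrd1, Klrk1 and Fasl, and for 12.1% of 18690 protein-coding gene windows with a peak. The reverse was seen for 0 of the 9 and for 8.45% of windows. Every Ezh2 list exceeded every GFP list for 2 genes, Klrd1 and Klrk1 (8.12% of windows), and the reverse was seen for 0 of the 9 (2.47%).

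**Figure D2:**
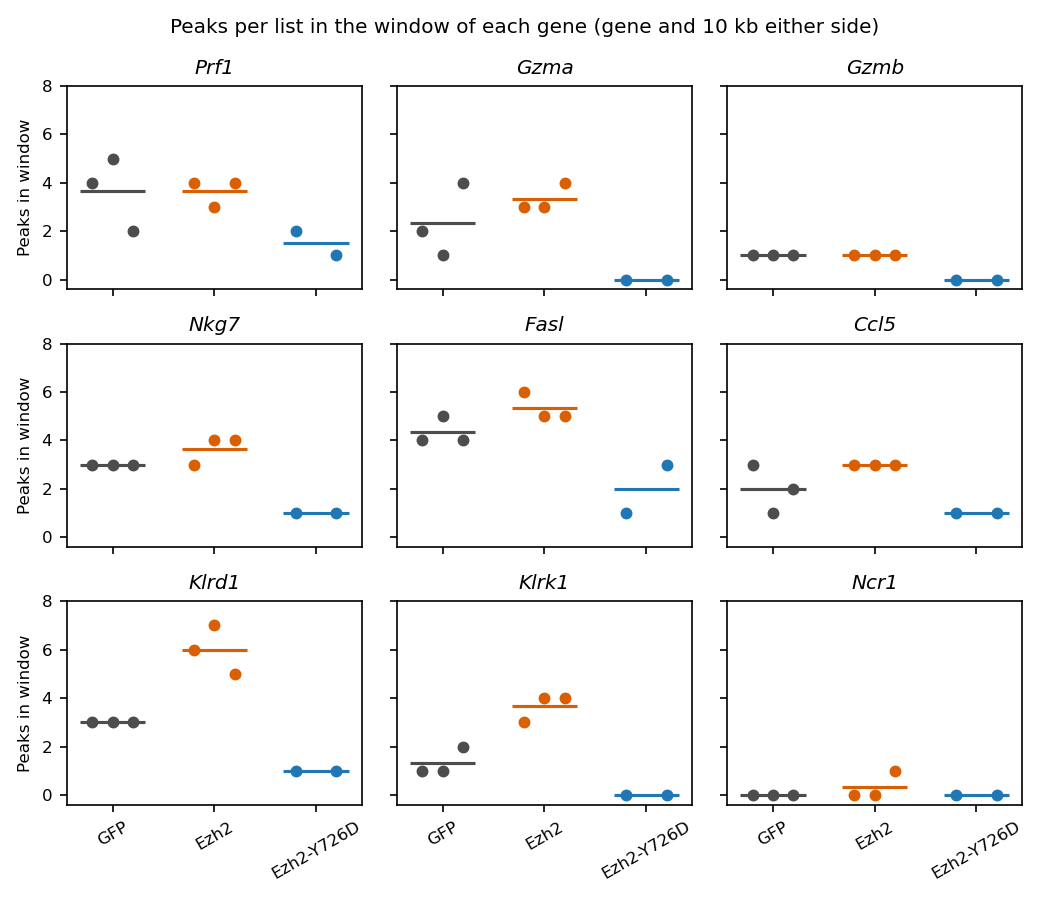
Number of peaks in the window of each gene (the gene and 10 kb on either side), 1 point per list, with horizontal lines at the group means for GFP (3 lists), Ezh2 (3 lists) and Ezh2-Y726D (2 lists). Gzma, Gzmb and Klrk1 have 0 peaks in both Ezh2-Y726D lists, and Ncr1 has 1 peak in 1 list.

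Prf1 encodes perforin, the pore-forming protein of the granules, and lies at chr10:61297751-61304684. Its window held 4, 5 and 2 peaks in the GFP lists, 4, 3 and 4 in the Ezh2 lists and 2 and 1 in the Ezh2-Y726D lists, so that GFP replicate 3 and Ezh2-Y726D replicate 1 were level. Region Prf1 2 (chr10:61296898-61297907) covers the promoter shown above, with a median summit at -170 bp from the start. The fold, the height of a peak over the local background of its own library, was 5.18, 5.97 and 6.97 there in the GFP lists and 8.73, 7.62 and 7.57 in the Ezh2 lists, and no Ezh2-Y726D list had a peak. Because each list has its own scale, folds were turned into the percentile of the peak within its list, which is the percent of its peaks with a lower fold. On that scale Prf1 2 stood at 57.5, 63.5 and 77.7 in GFP and at 87.3, 82.2 and 84.3 in Ezh2, without overlap. Downstream of the gene, Prf1 5 (chr10:61308461-61309212) stood at 33.0, 33.1 and 48.0 in GFP, at 72.9, 53.9 and 70.6 in Ezh2 and at 30.3 in Ezh2-Y726D replicate 1. Between the gene and Prf1 5, Prf1 4 had a peak at percentile 19.9 in GFP replicate 2 only, at 71.3, 64.1 and 72.7 in the Ezh2 lists and none in Ezh2-Y726D. The far upstream Prf1 1 was the region of this gene with a peak in both Ezh2-Y726D lists, at percentiles 57.5 and 17.4.

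Gzma and Gzmb encode granzymes A and B, serine proteases of the granules, and neither window had any peak in Ezh2-Y726D. Gzmb (chr14:56258836-56262334) had a single region, Gzmb 1 (chr14:56261914-56262736), over its promoter, with a median summit at -44 bp from the start. Its percentile was 79.1, 59.9 and 88.3 in the GFP lists and 93.4, 89.9 and 89.0 in the Ezh2 lists. The Gzmb promoter was thus among the strongest peaks of every Ezh2 list, and the lowest Ezh2 value lay only just above the highest GFP value. Gzma (chr13:113093824-113100981) lies inside the longer gene Cdc20b, so its peaks cannot be assigned to 1 of these genes alone. The window of Gzma held 2, 1 and 4 peaks in the GFP lists and 3, 3 and 4 in the Ezh2 lists. Gzma 1 (chr13:113087560-113088008), past the end of the gene, had a peak in all 6 of those lists, with percentiles of 49.1, 21.7 and 67.1 in GFP and 69.8, 65.2 and 72.2 in Ezh2, where the groups overlap. The promoter region Gzma 3 and the upstream region Gzma 4 each had a peak in GFP replicate 3 alone among the GFP lists and in every Ezh2 list. Gzma 4 stood at 39.4 in that GFP list and at 69.8, 75.0 and 83.3 in the Ezh2 lists.

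Nkg7 encodes a membrane protein of the granules and lies at chr7:43437138-43438246. Its window held 3 peaks in each GFP list, 3, 4 and 4 in the Ezh2 lists and 1 in each Ezh2-Y726D list. The promoter region Nkg7 2 (chr7:43436333-43437324) was level between the 2 groups that had it, at 59.9, 58.4 and 54.5 in GFP and 58.5, 61.5 and 59.4 in Ezh2. Nkg7 3 (chr7:43438488-43439036), just past the end of the gene, was a weak peak at 2.71, 3.21 and 7.07 in GFP and 16.3, 14.5 and 15.3 in Ezh2. The 1 region of this window with a peak in Ezh2-Y726D was Nkg7 4 (chr7:43443099-43444522), which overlaps Cldnd2 and the promoter of Etfb and not Nkg7. Etfb encodes a mitochondrial electron transfer protein that most cells use. Nkg7 4 stood at 95.7, 93.8 and 92.0 in GFP, at 90.6, 91.6 and 90.4 in Ezh2, with 94.9 and 95.1 in Ezh2-Y726D, close to the top of every list.

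Fasl encodes Fas ligand, the membrane protein that engages the receptor Fas on target cells, and lies at chr1:161780691-161788495. Its window held 4, 5 and 4 peaks in the GFP lists, 6, 5 and 5 in the Ezh2 lists, with 1 and 3 in the Ezh2-Y726D lists. Fasl had the most regions with the pattern of all GFP and Ezh2 lists and no Ezh2-Y726D list, 3 of its 6. The promoter region Fasl 4 (chr1:161787846-161788885) stood at 86.0, 75.7 and 76.5 in GFP and at 83.3, 77.7 and 85.5 in Ezh2, and the groups overlapped. Upstream, with a median summit at -6202 bp from the start, Fasl 6 (chr1:161794411-161795276) stood at 80.8, 69.7 and 82.7 in GFP and at 92.2, 88.1 and 90.0 in Ezh2, without overlap. Downstream, Fasl 2 (chr1:161779002-161779517) ranged from 22.5 to 52.9 in GFP and from 24.8 to 60.4 in Ezh2. A peak in all 8 lists was seen further downstream at Fasl 1 (chr1:161774342-161775542), with percentiles of 46.1, 35.3 and 50.0 in GFP, 46.3, 44.1 and 59.3 in Ezh2, with 22.9 and 26.5 in Ezh2-Y726D. Both Ezh2-Y726D values at Fasl 1 lay below the other 6. Fasl 3, inside the gene, and Fasl 5, upstream, had a peak in Ezh2-Y726D replicate 2 and in no GFP list. Fasl 3 stood at 10.0 in that list and at 17.4, 14.0 and 6.18 in the Ezh2 lists. Fasl 5 stood at 51.4 in that list and at 0.943 in Ezh2 replicate 1.

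Ccl5 encodes a chemokine that T and NK cells release to attract other leukocytes, and lies at chr11:83525778-83530518, within the noncoding gene Gm32650. Its window held 3, 1 and 2 peaks in GFP, 3 in each Ezh2 list and 1 in each Ezh2-Y726D list. The region at 1 end of the gene, Ccl5 3 (chr11:83530320-83530814), had a weak peak in GFP replicates 1 and 3 and in the 3 Ezh2 lists, at percentiles between 5.24 and 23.6. Outside the gene, Ccl5 1 (chr11:83524490-83524833) had a peak in the Ezh2 lists only, at 44.4, 51.5 and 37.7. Ccl5 4 (chr11:83534255-83535403) had a peak in all 8 lists, and there the Ezh2-Y726D lists ranked highest, with 80.7 and 67.6 against 62.8, 54.4 and 56.4 in GFP and 55.0, 60.9 and 56.1 in Ezh2. This order depended on ranking by fold, and ranked by −log10 p the difference between Ezh2-Y726D and GFP turned.

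**Figure D3:**
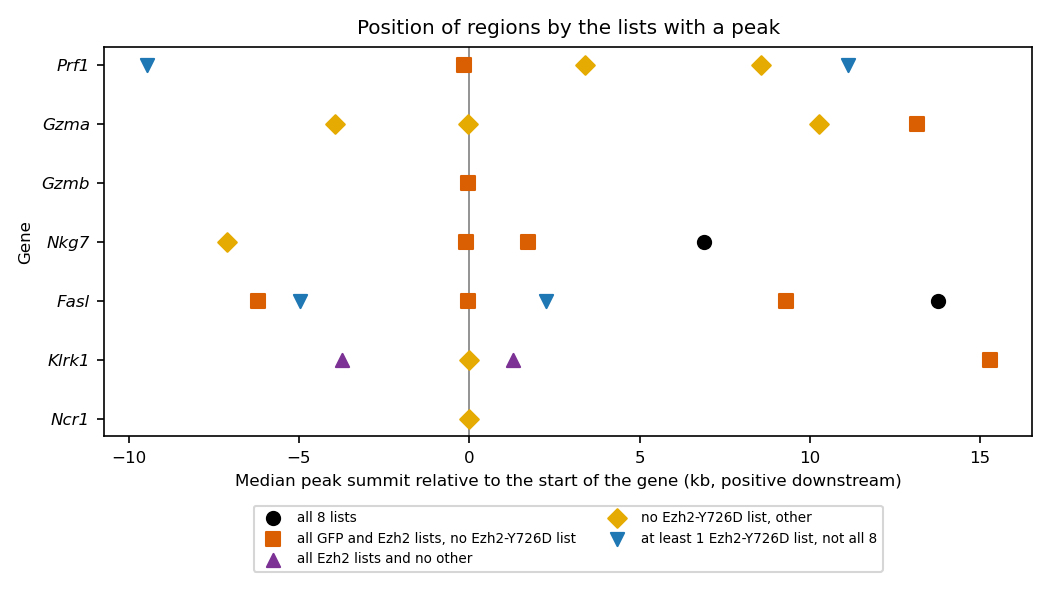
Position of each region relative to the start of the gene for the 7 genes with a start site in the table (horizontal axis, kb, positive downstream), at the median of its peak summits. Symbol and colour give the lists that had a peak. Orange squares (all GFP and Ezh2 lists, no Ezh2-Y726D list) stand at the starts of Prf1, Gzmb, Nkg7 and Fasl. Other orange squares stand away from the start, at Gzma, Nkg7, Fasl and Klrk1.

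Klrd1 and Klrk1 encode receptors of NK cells and some T cells that lie side by side in the NK gene complex on chromosome 6. CD94, from Klrd1, pairs with NKG2 proteins to recognise a nonclassical MHC molecule, and NKG2D, from Klrk1, is an activating receptor for ligands raised by stress. These were the 2 genes whose windows had more peaks in every Ezh2 list than in every GFP list. Klrd1 (chr6:129588092-129598775) had 3 peaks in each GFP list, 6, 7 and 5 in the Ezh2 lists and 1 in each Ezh2-Y726D list. Inside Klrd1 lie Klrd1 6, with a peak in Ezh2-Y726D replicate 2 alone (20.6), and Klrd1 8, with a peak in Ezh2 replicate 2 alone (4.35). Klrd1 7, also inside, stood at 46.7 and 48.0 in GFP replicates 2 and 3 and at 13.0, 39.4 and 39.9 in Ezh2. The other regions of the window lie outside Klrd1, and Klrd1 1 to 4 overlap Klre1. Klrk1 (chr6:129610323-129623903) had 1, 1 and 2 in GFP, 3, 4 and 4 in Ezh2 and 0 in both Ezh2-Y726D lists. The windows share the region Klrk1 1 (chr6:129608214-129608975), between the genes. Klrk1 1 showed the widest gap between GFP and Ezh2 among the member regions present in all 6 of their lists, at 33.0, 46.7 and 12.6 in GFP and 69.8, 83.7 and 67.2 in Ezh2. In the window of Klrk1, Klrk1 2 inside the gene (29.5, 34.7 and 27.2) and Klrk1 4 upstream of it (60.9, 59.0 and 50.6) had peaks in the 3 Ezh2 lists and in no other. The promoter region Klrk1 3 had a peak in GFP replicate 3 and Ezh2 replicates 2 and 3. Klrd1 1, at the promoter of the neighbouring receptor gene Klre1, was also an Ezh2-only region, at 9.06, 21.3 and 27.3. The difference ran the other way at Klrd1 2 (chr6:129581034-129581767), within Klre1, with 49.1, 66.7 and 63.9 in GFP, 30.5, 45.9 and 55.6 in Ezh2 and 48.3 in Ezh2-Y726D replicate 1, and there the groups overlapped.

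Ncr1 encodes NKp46, an activating receptor that marks NK cells and related innate lymphocytes more narrowly than the other 8 genes. Its window (Ncr1 is at chr7:4337715-4345184) was empty in 7 of the 8 lists. The single peak, Ncr1 1 (chr7:4337648-4337873), lay over the promoter in Ezh2 replicate 3, the longest list, at a percentile of 6.93. Both promoters listed for Ncr1 hold the RUNX motif on either strand.

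Over the genes with a promoter in the table, 4, 4 and 6 of 7 promoters had a peak in the GFP lists, 5, 6 and 7 in the Ezh2 lists and 0 in both Ezh2-Y726D lists. Among 27025 genes the share with a peak at the promoter was alike in every list, from 50.2% to 52.8%. The 4 promoters printed above, with a peak throughout GFP and Ezh2 and none in Ezh2-Y726D, are set beside 1.03% of all genes with that pattern.

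The comparison of Ezh2 with GFP could be graded at the 14 member regions with a peak in all 6 of their lists. Percentiles were higher in every Ezh2 list than in every GFP list at 6 of them (Klrk1 1, Prf1 5, Prf1 2, Gzmb 1, Fasl 6 and Nkg7 3), and at 15.1% of 80295 regions with a peak in those 6 lists. The reverse was seen at 1, Nkg7 4 (10.7%), and the remaining 7 overlapped. The mean was higher in Ezh2 at 11 of the 14, with a median difference of 8.56 percentile points, compared with 0.987 over all such regions. When normal scores of the ranks were compared with limma over all of these regions, 0 of the 14 member regions passed a Benjamini-Hochberg adjusted p of 0.05 and 7 of 14 had an unadjusted p under 0.05, where 5.16% of all regions passed the adjusted threshold and 20.7% the unadjusted one. Nothing is read from these counts, since the ranks also chose the genes. This fit was chosen after the data had been seen.

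**Figure D4:**
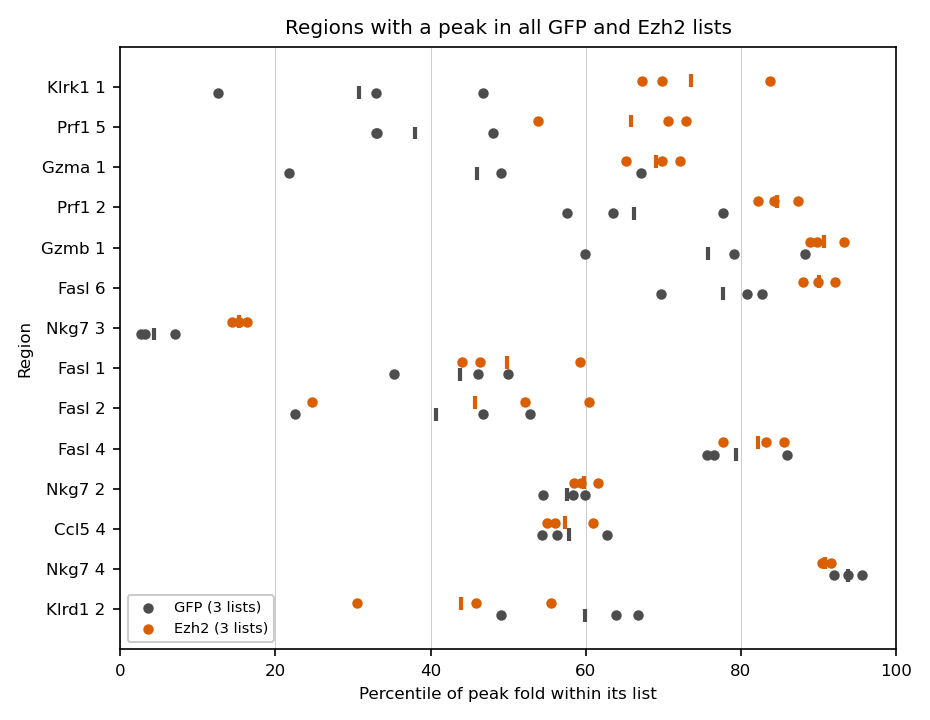
Percentile of peak fold within its list (horizontal axis) at the 14 regions found in all 3 GFP lists (grey) and all 3 Ezh2 lists (orange). Points are lists, short vertical bars are group means, and regions are ordered by the difference of the means, which runs from 42.8 points at Klrk1 1 to -15.9 at Klrd1 2.

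All 3 groups could be graded only at Fasl 1, Ccl5 4 and Nkg7 4, the member regions with a peak in all 8 lists. In normal scores of the rank, Ezh2-Y726D minus GFP was -0.53 ± 0.187 (SE) at Fasl 1, 0.52 ± 0.213 at Ccl5 4 and 0.08 ± 0.184 at Nkg7 4. None of the 3 passed the adjusted threshold in limma and 2 had an unadjusted p under 0.05, where 8.21% of 69493 regions passed the first and 24.4% the second. Ranked by −log10 p in place of fold, this difference was -0.77 at Fasl 1 and -0.37 at Ccl5 4, so Ccl5 4 changed sign. Ezh2 minus Ezh2-Y726D was 0.68 ± 0.187 at Fasl 1, where the adjusted p was under the threshold (as in 14.0% of all regions), -0.56 ± 0.213 at Ccl5 4 and -0.35 ± 0.184 at Nkg7 4. For Ezh2 minus GFP limma called 0 of the 3, none had an unadjusted p under 0.05, and the shares of all regions were 4.44% and 20.0%. These ranks are the values that chose the genes, so the value at Fasl 1 is a description. It missed the threshold without any 1 of Ezh2 replicates 1 and 3 and Ezh2-Y726D replicates 1 and 2, and 3 regions of 37 cover few of the members.

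Another 51 genes of the cytotoxic programme, in 5 lists by role, were counted in the same way. These lists too were drawn up with earlier results of the data known. More peaks in every GFP list than in either Ezh2-Y726D list were found for 24 of the 51 (12.1% of all windows), and the reverse for 0 (8.45%). Every Ezh2 list exceeded every GFP list for 7 (8.12%) and the reverse held for 1 (2.47%). The median difference of Ezh2-Y726D minus GFP was -1.33 peaks over the 51 genes and -2 over the 9 members, with 0 over all 18690 windows, and the median of Ezh2 minus GFP was 0.333, 1 and 0 in the same order.

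Among 13 genes for granule contents and release, 2 had more peaks in every GFP list than in Ezh2-Y726D, a share near the 12.1% of all windows. They were Srgn, the proteoglycan that packs the granules, with 5, 5 and 6 peaks in GFP, 7, 6 and 7 in Ezh2, with 2 and 3 in Ezh2-Y726D, and the granzyme Gzmk, with 1, 2 and 3, then 4, 3 and 3, then 0 and 0. Unc13d, which primes granules for release, had 5, 9 and 8 peaks in GFP, 6, 6 and 5 in Ezh2, with 4 and 5 in Ezh2-Y726D, with overlap. Of the 13 genes, 11 overlapped between GFP and Ezh2-Y726D. Release of granules is shared with many other secretory cells, and the part of such cells in these counts was not tested.

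NK receptors and their adaptors showed the pattern in 10 of 14 genes (12.1% of all windows), 4 of the 14 had more peaks in every Ezh2 list than in every GFP list (8.12%), and 1 had fewer (2.47%). Hcst and Tyrobp count as 2 of the 10, although they had the same numbers of peaks in all 8 lists. Cd226, an activating receptor, had 3, 2 and 5 peaks in GFP, 10, 8 and 9 in Ezh2 and 0 in both Ezh2-Y726D lists. The signalling adaptor Fcer1g had 7, 5 and 7, then 5 in each Ezh2 list, then 3 and 3, and Hcst, the adaptor of NKG2D, had 5, 4 and 4, then 4, 5 and 4, then 2 and 1. Klrc1, the inhibitory NKG2 partner of CD94, had 1, 1 and 2 peaks in GFP, 3, 2 and 2 in Ezh2, with 0 and 1 in Ezh2-Y726D, which overlapped. Fcer1g is also used by myeloid cells.

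Of 6 effector cytokines and death ligands, 5 had more peaks in every GFP list than in Ezh2-Y726D (12.1% of all windows). Ccl4 had 3, 3 and 7 peaks in GFP, 6, 5 and 8 in Ezh2 and 0 in both Ezh2-Y726D lists, and its neighbour Ccl3 had 2, 2 and 6, then 4, 4 and 5, then 0 and 0. Both are chemokines that attract leukocytes, and their windows share regions although they count as 2 of the 5. The cytokine Tnf had 3, 6 and 8, then 5, 7 and 6, then 2 and 2.

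The receptors and ligands that meet the members' proteins showed the pattern in 3 of 7 genes (12.1% of all windows). Fas, the receptor of Fas ligand, had 3, 4 and 5 peaks in GFP, 3, 5 and 5 in Ezh2 and 4 in both Ezh2-Y726D lists, and did not separate the groups. Ccr3, a receptor for the Ccl5 protein, had 1, 2 and 3, then 4 in each Ezh2 list, then 0 and 0. H2-T23, which encodes the MHC molecule seen by CD94 with NKG2 partners, had 5, 6 and 5, then 4, 6 and 5, then 4 and 3.

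Transcription factors and cytokine receptors of cytotoxic cells showed it in 4 of 11 genes (12.1% of all windows). The 3 with the widest difference were Prdm1, Runx3 and Il2rb. Prdm1, a repressor active in effector lymphocytes, had 17, 14 and 18 peaks in GFP, 12, 15 and 13 in Ezh2, with 9 and 10 in Ezh2-Y726D. Runx3, a RUNX factor of cytotoxic T and NK cells, had 8, 7 and 10, then 10, 12 and 11, then 4 and 3. Il2rb, the receptor chain shared by IL-2 and IL-15, had 10, 8 and 10, then 8, 9 and 11, then 7 and 5.

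Markers of other cell types were counted in the same windows. For 18 T cell markers the summed peaks were 104, 108 and 127 in GFP, 155, 158 and 157 in Ezh2 and 75 in both Ezh2-Y726D lists. Of the 18, 12 had more peaks in every GFP list than in Ezh2-Y726D (12.1% of all windows) and 1 the reverse (8.45%). Every Ezh2 list exceeded every GFP list for 8 of the 18 (8.12% of all windows). The T cell receptor chain gene Cd3e had 2, 2 and 4 peaks in GFP, 6 in each Ezh2 list and 1 in both Ezh2-Y726D lists, and Cd8a, the coreceptor of cytotoxic T cells, had 2, 2 and 5, then 4, 5 and 4, then 0 and 0. Themis, a signalling protein of T cells, was the 1 with fewer peaks in every GFP list than in Ezh2-Y726D, with 4, 4 and 2, then 11, 10 and 13, then 7 and 5, and Lck, Lat, Zap70, Cd5 and Tcf7 overlapped between GFP and Ezh2-Y726D. In their sum T cell markers ranked in the same order of groups as the members. By mean peaks per list, the microglia and macrophage, B cell, neutrophil and mast cell markers given next also ranked in that order. For neutrophil and mast cell markers the ranges of the GFP and Ezh2-Y726D lists met. The RGC and rod markers did not rank in that order. RGC markers were also highest in Ezh2, with a mean of 69, and GFP (56.7) and Ezh2-Y726D (57) were nearly level. The part of T cells in the result was not tested.

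The 15 microglia and macrophage markers held from 55 to 66 peaks in GFP, from 66 to 69 in Ezh2, with 34 and 35 in Ezh2-Y726D. Of these, 7 of 15 were higher in every GFP list than in Ezh2-Y726D (12.1% of all windows) and 0 the reverse (8.45%). For 10 B cell markers the ranges were 35 to 43, 40 to 48 and 32 to 33, and 1 of 10 was higher in GFP, a share near that of all windows. For 8 neutrophil markers they were 6 to 11, 8 to 14 and 6 in both, with S100a9, Ly6g and Retnlg at 0 in every list, and for 7 mast cell markers 10 to 14, 13 to 15 and 8 to 10, with Mcpt4 and Fcer1a at 0 in every list. Of these, 1 of 8 neutrophil and 1 of 7 mast cell markers were higher in every GFP list than in Ezh2-Y726D, shares near the 12.1% of all windows. All 15 RGC markers had a peak in every list, with 53 to 61 peaks in GFP, 66 to 73 in Ezh2 and 56 to 58 in Ezh2-Y726D. Of the 15, 2 were higher in every GFP list than in Ezh2-Y726D and 2 lower, shares near the 12.1% and 8.45% of all windows. Thy1, the marker used for the sort, had 4, 3 and 4 peaks in GFP, 3, 3 and 4 in Ezh2 and 2 in both Ezh2-Y726D lists, and Isl1 was the other that was higher in GFP, while Stmn2 and Rbpms2 were lower. Rod markers, 10 of 10 with a peak in every list, held 57 to 61, 50 to 54 and 48 to 54, so peaks at genes of other retinal neurons were present beside those of the labelled cell type. The part of these cell types in the peaks of the 9 genes was not tested.

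**Figure D5:**
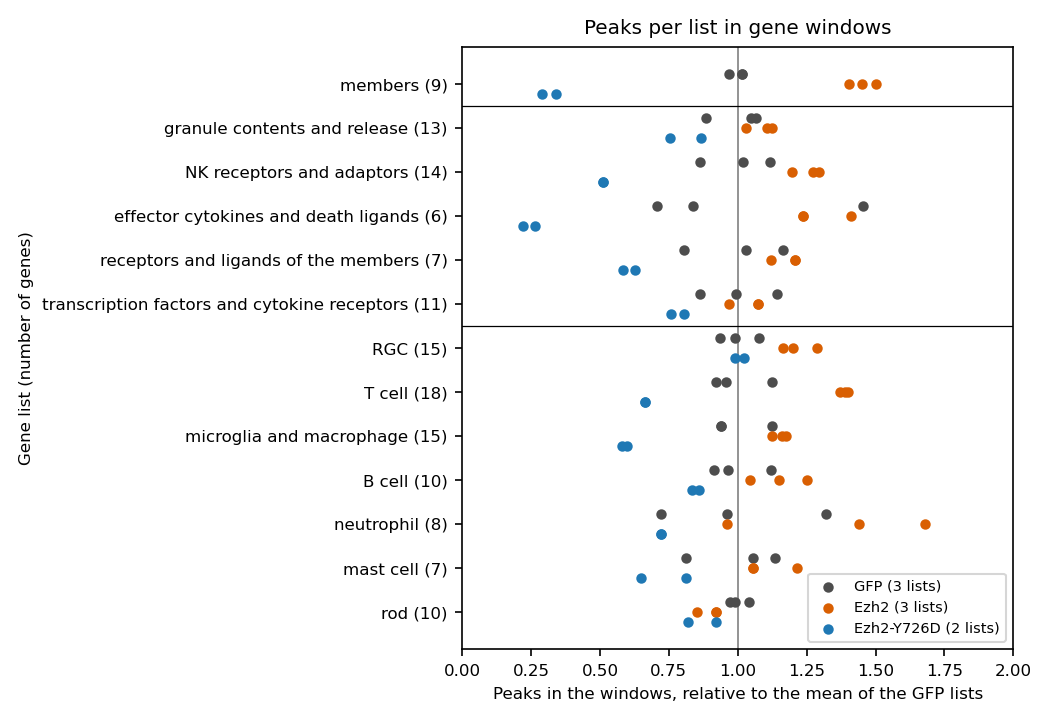
Number of peaks per list in the windows of the 9 members, of the 5 programme lists and of the 7 marker lists, divided by the mean of the GFP lists for the same genes, 1 point per peak list (some points coincide). A peak in a window shared by 2 genes of a list is counted for both. For the members Ezh2-Y726D averages 0.315 and Ezh2 1.45, for T cell markers 0.664 and 1.39, and for RGC markers 1.01 and 1.22.

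Outside these lists, the protein-coding genes whose number of peaks followed that of the 9 members most closely over the 8 lists, by Pearson's r, were Gm19345, 4933402D24Rik, Amz2, Apod and Apon, each with r of 0.992. The counts behind these values are small whole numbers, for example 6 peaks in each GFP list, 7 in each Ezh2 list and 4 in each Ezh2-Y726D list for Gm19345. The 8 points share their groups, and 525 genes had r over 0.9, so the likeness is a description.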

How the data were processed

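Chromatin accessibility was measured by ATAC-seq in 8 libraries, grouped by sample title. Peaks had been called by the authors for every sample on its own, and 1 narrowPeak list per sample was deposited. The processing notes of the submitters name cutadapt, Bowtie2, SAMtools, Picard, MACS2, deepTools and the mouse build GRCm38. Versions, the order of the steps and the peak threshold are not given in the sources used here. In the deposited lists, fold is a ratio, the pileup at a peak's summit over the background around it. The authors' peak caller also gave each peak a −log10 p-value, a −log10 q-value, a score derived from q and a summit position. These values were used only to rank, filter or place peaks within a list, since libraries share no scale and depth is unknown. The number in the peak names of Ezh2-Y726D replicates 1 and 2 was 2 and 3.

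The 9 genes and all gene lists were chosen with earlier results of these data known. Positions came from RefSeq for GRCm38.p6, and coordinates count from 1. Peaks overlapping by 1 bp or more were joined into regions. Where a list had more than 1 peak in a region (4 of the 37 member regions), the highest fold was used. The percentile is the share of a list's peaks with a lower fold, with ties counted by mid-rank. Ranks were also turned into normal scores and compared with limma 3.58.1 (R 4.3.3, lmFit and eBayes, 8 samples in 1 fit, regions with a peak in all 8 lists, Benjamini-Hochberg over all of them, threshold 0.05). The limma fit was tested on simulated data, and the joining of peaks on a small made-up list with known answers. The other steps were not tested in this way. List lengths were compared with exact permutation tests in Python 3.11.15. Named were all members, up to 3 genes per programme list with the widest difference in mean peaks between Ezh2-Y726D and GFP, Fas, Klrc1, and the 5 genes outside the lists most like the members by Pearson's r, and 1 gene that the rule names is not reported here. Marker genes with their values (Cd3e, Cd8a, Themis, Thy1) and Tyrobp were named after their values were seen. Motifs were searched on both strands of RefSeq promoters. Alternatives were the window, a −log10 q of at least 5, lists of equal length (112939 peaks), a peak covering at least 0.5 of the region, ranking by −log10 p, regions with a peak in at least 5 lists, a replicate block, fits of 2 groups, and leaving out each replicate.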

Additional observations from a re-analysis of the deposited data

How the results depend on the processing

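The members were chosen with these contrasts known, depth is unknown, and Ezh2-Y726D had 2 libraries, so these values describe how the counts move and not how sure they are. Leaving out a list loosens the rule for every region of the series. Shares of all regions under each alternative are not given here, so the counts in this section are not compared with a background. In the gene bodies alone (window 0 kb), the regions with a peak in every list of the first group and none of the second numbered 2 for Ezh2 over GFP, 8 for Ezh2 over Ezh2-Y726D and 4 for GFP over Ezh2-Y726D, and the mean differences in peaks were 3.67 (Ezh2 minus GFP), -6 (Ezh2-Y726D minus GFP) and 9.67 (Ezh2 minus Ezh2-Y726D). With windows of 3 kb the first count was 3 and the differences were 5.67, -10 and 15.7. With a −log10 q of at least 5 the last 2 differences were -11.8 and 20.8, and with lists of equal length Ezh2 minus GFP was 7.67 and Ezh2 minus Ezh2-Y726D 21.3. The directions of these differences were the same under each of these alternatives.

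The single limma call, Ezh2 minus Ezh2-Y726D at Fasl 1, became 0 calls with the 0 kb and 3 kb windows, which do not hold Fasl 1. With a −log10 q of at least 5 there were 0 calls too, but Fasl 1 was not among the fitted regions. With only the 2 groups fitted and with the replicate block, Fasl 1 was fitted and there were 0 calls. Ranking by −log10 p gave 1, 1 and 2 calls among the 3 regions for Ezh2 minus GFP, Ezh2-Y726D minus GFP and Ezh2 minus Ezh2-Y726D. Fasl 1 was called in each contrast and Ccl5 4 in the last. The share of all regions called under this ranking is not given here, so nothing is read from these counts. This ranking turned the differences at Ccl5 4 to 0.37, -0.37 and 0.74, so its call had the opposite sign to its difference by fold. The cause was not tested.

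Leaving out 1 replicate at a time gave 5 to 7 regions for every Ezh2 and no GFP list, 9 to 11 for every GFP and no Ezh2-Y726D list, 18 to 20 for every Ezh2 and no Ezh2-Y726D list, 0 to 3 for every Ezh2-Y726D and no GFP list (3 without Ezh2-Y726D replicate 1, 1 without GFP replicate 1), 0 to 1 for every Ezh2-Y726D and no Ezh2 list (1 without Ezh2 replicate 1 or Ezh2-Y726D replicate 1) and 0 to 1 limma calls for Ezh2 minus Ezh2-Y726D. Mean differences in peaks ranged from 8.83 to 9.83, from -13.7 to -12.7 and from 22 to 23. At Ccl5 4, Ezh2 minus GFP ranged from -0.133 to 0.055 and changed sign without GFP replicate 1 or Ezh2 replicate 3, and at Nkg7 4, Ezh2-Y726D minus GFP ranged from -0.031 to 0.185 and changed sign without GFP replicate 3.

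Deviations from the group means were correlated over regions with a peak in all 8 lists. For samples with the same number in the title the correlations lay between -0.015 and 0.048. For samples with different numbers they lay between -0.048 and 0.046, so the numbers were not taken to pair samples. With the replicate number of the title as a block, the calls for Ezh2 minus Ezh2-Y726D were 0 and no other call moved. The peak names of both Ezh2-Y726D lists carried numbers other than their titles, and a block by those was not fitted.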

Other observations

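Several members lie in gene families that stand together on 1 chromosome, and the families were counted after the members had been examined. The NK gene complex around Klrd1 and Klrk1 (chr6:128599227-131257716, 25 genes of the Klr family from Klrb1a to Klra2) held 152 regions. Its lists had 74, 66 and 86 peaks in GFP, 113, 111 and 120 in Ezh2, with 50 and 53 in Ezh2-Y726D, and the groups did not overlap. A peak in all GFP and Ezh2 lists and in no Ezh2-Y726D list was found at 14 of the 152 regions (9.21%), against 3.61% of all regions in the series. A peak in all 8 lists was found at 37 of the 152, a smaller share than the 36.6% of all regions. The chemokine cluster from Ccl5 to Ccl4 (chr11:83515778-83674683, 5 genes) held 31 regions, 7 of them (22.6%) with that pattern, and its lists had 14, 10 and 21 peaks in GFP, 24, 19 and 22 in Ezh2, with 4 and 3 in Ezh2-Y726D. The granzyme and mast cell protease cluster from Cma1 to Gzmb (chr14:55931451-56272334, 15 genes) held 15 regions, 2 of them with the pattern (13.3%). Its lists had 4, 8 and 8 peaks in GFP, 9, 12 and 9 in Ezh2, with 5 and 7 in Ezh2-Y726D, and GFP and Ezh2-Y726D overlapped. A peak shared by both Ezh2-Y726D lists alone was found at 0 regions of these clusters.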
